A study of Mus musculus with 6 samples.

Results

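The 10 genes described here encode the subunits of the transcription factor NF-κB and its classical and atypical inhibitor proteins. They were taken by name, as the rows of the deposited expression table whose symbol is Rela, Rel, Nfkb1, Relb, Nfkb2, Nfkbia, Nfkbib, Nfkbie, Nfkbiz or Bcl3, and all 10 were found among its 24940 genes. Bone marrow cells for all libraries first had 16 hours with M-CSF at 5 ng/mL and then 3 days of precursor growth. The resulting osteoclast precursors (OCPs), which are macrophages grown from mouse bone marrow with M-CSF, were then cultured for 3 days in 3 conditions. Each condition had 2 RNA-seq libraries. All cultures received M-CSF at 30 ng/mL. The -R cultures received nothing else, the +R cultures also received RANKL at 100 ng/mL, and the R+LE cultures received RANKL at 100 ng/mL and LE, a methanol extract of the leaves of the shrub Abeliophyllum distichum, at 10 μg/mL. The sample labels describe cells of C57BL/6 mice aged 6 to 8 weeks, whereas the paper's methods name male ICR mice. Neither source says whether the 2 libraries of a condition came from separate animals or cultures, so p-values measure only the spread between these libraries, which may be technical.

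NF-κB is a family of dimers. In the canonical arm, p65 (Rela), c-Rel (Rel) and p50, which is cut from a precursor encoded by Nfkb1, are held in the cytoplasm by the classical inhibitors IκBα (Nfkbia), IκBβ (Nfkbib) and IκBε (Nfkbie) until an IκB kinase marks these for destruction. In the alternative arm, the kinase NIK triggers the processing of p100, the product of Nfkb2, to p52, which pairs with RelB (Relb). The atypical inhibitors IκBζ (Nfkbiz) and Bcl-3 (Bcl3) act in the nucleus on p50 and p52 dimers. RANKL engages both arms, and mice that lack both Nfkb1 and Nfkb2 form no osteoclasts. Several of these genes are themselves NF-κB targets, which gives the pathway its feedback.

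The promoter sequences show where the motif bound by NF-κB lies in these genes. RefSeq windows of 300 bases, from 250 bases before to 50 after a transcript start in GRCm38.p6, were held for 7 of the 10 genes, namely Rela, Rel, Nfkb2, Nfkbia, Nfkbib, Nfkbie and Bcl3. Each was searched on both strands for the κB consensus decamer, a motif of 10 bases with a run of G at its 5′ end and of C at its 3′ end. A match lay in 8.46% of all 32851 windows and in 5 of these 7. The 250 bases upstream of the start are shown for the 4 genes with a match there, and for Rela as an example without a match. They lie at chr19:46304487-46304736 on the plus strand for Nfkb2, at chr17:45555450-45555699 on the plus strand for Nfkbie, at chr12:55492648-55492897 on the minus strand for Nfkbia, at chr11:23770970-23771219 on the minus strand for Rel and at chr19:5637291-5637540 on the plus strand for Rela. Capitals mark matches, and overlapping matches run together.
Nfkb2: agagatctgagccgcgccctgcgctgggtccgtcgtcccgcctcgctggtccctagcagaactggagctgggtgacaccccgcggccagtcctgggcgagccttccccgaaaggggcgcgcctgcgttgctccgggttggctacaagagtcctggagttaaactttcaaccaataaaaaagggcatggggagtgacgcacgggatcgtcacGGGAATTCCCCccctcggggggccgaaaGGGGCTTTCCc
Nfkbie: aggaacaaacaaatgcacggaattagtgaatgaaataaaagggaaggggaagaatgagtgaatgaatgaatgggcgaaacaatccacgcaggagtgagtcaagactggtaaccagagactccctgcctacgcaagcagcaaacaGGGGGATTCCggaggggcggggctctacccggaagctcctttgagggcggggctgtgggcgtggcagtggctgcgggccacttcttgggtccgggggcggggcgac
Nfkbia: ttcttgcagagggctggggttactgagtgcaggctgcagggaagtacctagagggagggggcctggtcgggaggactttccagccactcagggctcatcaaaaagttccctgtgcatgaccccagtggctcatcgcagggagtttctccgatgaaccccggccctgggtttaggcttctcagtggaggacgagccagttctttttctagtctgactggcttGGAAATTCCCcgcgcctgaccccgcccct
Rel: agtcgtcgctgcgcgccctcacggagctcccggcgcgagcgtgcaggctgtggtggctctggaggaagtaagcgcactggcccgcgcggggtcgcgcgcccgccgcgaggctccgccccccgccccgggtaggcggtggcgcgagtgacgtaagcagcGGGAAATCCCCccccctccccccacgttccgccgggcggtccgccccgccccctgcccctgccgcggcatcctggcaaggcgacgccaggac
Rela: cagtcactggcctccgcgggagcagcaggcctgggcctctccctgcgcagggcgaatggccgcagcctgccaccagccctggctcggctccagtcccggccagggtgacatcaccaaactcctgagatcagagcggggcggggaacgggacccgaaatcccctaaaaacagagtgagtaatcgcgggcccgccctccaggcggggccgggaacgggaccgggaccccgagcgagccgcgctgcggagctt

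Nfkb2 had matches at positions -39 to -30 and -38 to -29, which overlap, and another at -11 to -2, counted from the RefSeq start. The overlapping pair of Rel began at -92 and -91. Nfkbia had a match at -29 to -20 and Nfkbie at -106 to -97. In Bcl3 the only match, GGGAAGTCCC, lay just inside the transcript at 3 to 12. No match was found in the windows of Rela and Nfkbib. A match is a description of the letters and not a measured binding site. The RefSeq start of Rela lay 51 bases from the start of the deposited transcript, and the others lay within 1 base. Nfkb2 had 3 windows, of which the one at the deposited start was used.

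**Figure D1:**
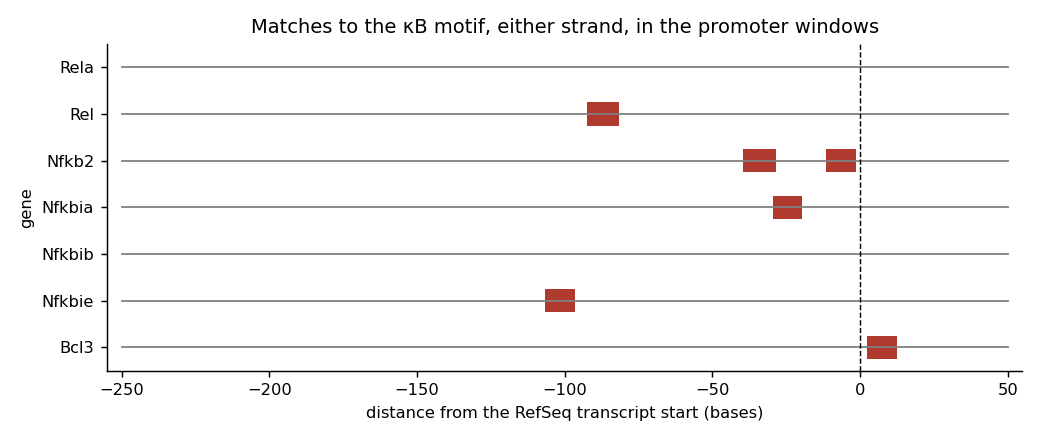
Position of matches to the κB consensus decamer in the promoter windows of 7 genes. The horizontal axis is the distance from the RefSeq transcript start in bases, and each red box is a match on either strand. Matches lay in the windows of Rel, Nfkb2, Nfkbia, Nfkbie and Bcl3 and not in those of Rela and Nfkbib.

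Expression was measured as RPKM, reads per kilobase of transcript scaled to the depth of the library, so levels can be compared between genes. Whole reads were recovered from RPKM and transcript length, and gave a depth of 29390215 to 34846385 mapped reads a library. At this depth the members held between 127 and 7001 reads in each library, and none was near the limit of 3 reads that a count of 0 allows. The Rn45s entry, a ribosomal RNA precursor, took 4.97 to 6.83% of gene reads without RANKL, 10.9 to 11.1% with it and 11.2 to 13.5% with LE added, and its part in the results was not tested beyond an alternative that left it out of the depth. The cultures expressed macrophage markers, of which Csf1r, the M-CSF receptor gene, was 337 and 340 RPKM in -R and 163 to 217 RPKM in the other 4 libraries. The 6 macrophage markers summed to 1655 to 1731 RPKM in -R, 874 to 1005 with RANKL and 832 to 1012 with RANKL and LE. From -R to +R 5 of them fell, against 21.5% of all genes. Itgam did not, at 69.6 and 71.4 RPKM in -R, 101 and 79.7 RPKM in +R, and 103 and 106 RPKM in R+LE. It was higher in R+LE than in -R (log2 fold change 0.56, limma adjusted p = 0.0114). The sum over 9 osteoclast markers was 43.4 to 45.0 RPKM without RANKL, with Oscar and Calcr at 0, then 1894 to 2161 RPKM with RANKL and 340 to 393 RPKM with LE added. Of other cell types, 5 neutrophil markers summed to 15.2 to 16.9 RPKM without RANKL, 0.660 to 0.816 RPKM with it and 0.509 to 2.53 RPKM with LE added, with S100a9 at 0 in every library with RANKL. The 5 stromal markers went from 14.8 to 16.7 RPKM without RANKL to 10.9 to 15.0 RPKM with it and 7.96 to 8.90 RPKM with LE added. The 4 T cell markers stayed at or under 0.221 RPKM, with Cd3e at 0 in all libraries, and the 4 dendritic cell markers summed to 0.874 to 1.09 RPKM without RANKL, 0.824 to 1.28 RPKM with it and 0.253 to 0.302 RPKM with LE added. The part of these cells in the results was not tested.

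To examine how RANKL changed the family, +R was compared with -R. Of the 10 genes, 7 rose, none fell and 3 did not pass an adjusted p of 0.05 (limma on log2(RPKM + 0.5), Benjamini-Hochberg over 11595 genes). Among all genes tested, 45.4% changed by the same criterion, 23.9% upward and 21.5% downward. The alternative subunits Nfkb2 and Relb and the inhibitors Nfkbie, Nfkbia and Bcl3 rose by at least 2-fold, against 6.58% of all genes, while the canonical subunits Rel and Nfkb1 rose by less. The median log2 fold change was 0.90 over the 10 genes and 0.05 over all genes. In bulk RNA, more cells that express a gene and more RNA of that gene per cell cannot be told apart.

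**Figure D2:**
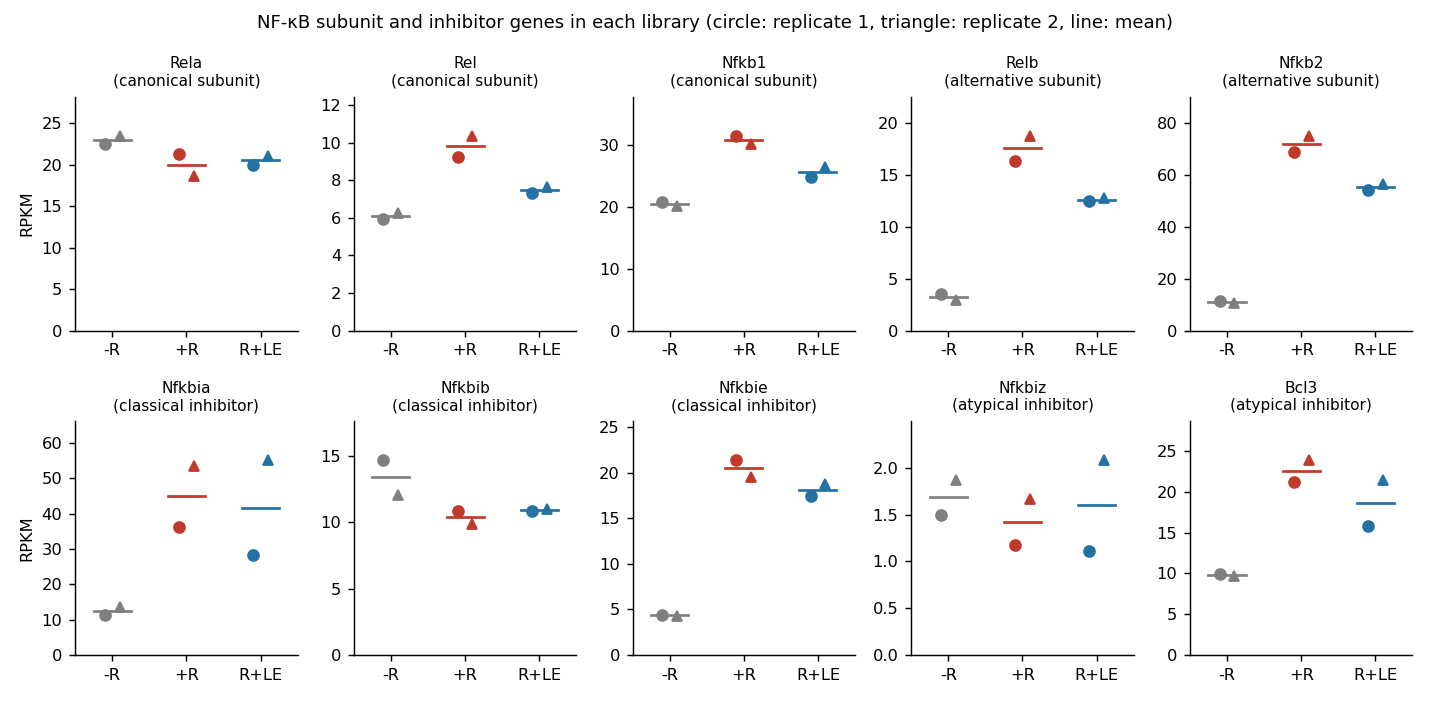
RPKM of each of the 10 genes in the 6 libraries. The vertical axes are linear, start at 0 and differ between genes, circles are replicate 1, triangles are replicate 2, and lines are the means of 2 libraries. The +R and R+LE libraries of Relb, Nfkb2, Nfkbie, Nfkbia and Bcl3 all sit above both -R libraries, and those of Rela sit slightly below.

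Nfkb2, the precursor of p52, had the largest change of the family. It lies on chromosome 19 of mm10 from 46304737 to 46312090. It was 11.4 and 10.8 RPKM in -R, 68.9 and 75.3 RPKM in +R, and 54.2 and 56.4 RPKM in R+LE. All libraries with RANKL lay above those without it, and both R+LE libraries lay below both +R libraries. The log2 fold change from -R to +R was 2.64 (standard error 0.14, limma adjusted p = 6.20e-10), a 6.25-fold rise on the RPKM + 0.5 scale. Because the counting ignored strand, reads of Nfkb2 could not be separated from those of RNA on the opposite strand where the 2 overlap. In GENCODE, exons of AC114539.1 and Psd on that strand share up to 531 and 299 bp with Nfkb2 exons. As deposited, Psd begins at 46312087 and so meets only the last bases of Nfkb2. The deposited row 4833438C02Rik spans 46303585 to 46305629, across the start of Nfkb2. Both deposited rows moved with Nfkb2. 4833438C02Rik went from 2.03 and 2.55 RPKM in -R to 12.8 and 14.3 RPKM in +R, and Psd from 0.325 and 0.438 RPKM to 2.62 and 3.45 RPKM. Their part in the rise of Nfkb2 was not tested.

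Relb (chromosome 7, 19606223-19629438) encodes the partner of p52. It was 3.54 and 2.95 RPKM in -R, 16.3 and 18.8 RPKM in +R, and 12.5 and 12.8 RPKM in R+LE. The 3 conditions did not overlap and stood in the same order as for Nfkb2. Relb rose 4.83-fold from -R to +R (log2 fold change 2.27, standard error 0.14, limma adjusted p = 5.25e-09).

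The canonical subunits changed less. Rela (chromosome 19, 5637490-5648130) was 22.5 and 23.5 RPKM in -R, 21.3 and 18.6 RPKM in +R, and 19.99 and 21.08 RPKM in R+LE. Both +R libraries were lower than both -R libraries, but the log2 fold change of -0.20 did not pass the test (95% interval -0.50 to 0.09, limma adjusted p = 0.247). Nfkb1 (chromosome 3, 135584655-135691547) was 20.8 and 20.2 RPKM in -R, 31.6 and 30.2 RPKM in +R, and 24.9 and 26.6 RPKM in R+LE. With RANKL it rose (log2 fold change 0.58, standard error 0.13, limma adjusted p = 0.00239). Rel (chromosome 11, 23741729-23770970) was 5.94 and 6.26 RPKM in -R, 9.23 and 10.4 RPKM in +R, and 7.30 and 7.62 RPKM in R+LE. Its rise with RANKL was 1.56-fold (log2 fold change 0.64, limma adjusted p = 0.0013), and for both genes the R+LE libraries stood between the other conditions.

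Among the classical inhibitors, Nfkbie and Nfkbia rose and Nfkbib did not pass. Nfkbie lies on chromosome 17 from 45555700 to 45563168 and encodes IκBε, an inhibitor that NF-κB itself induces. It was 4.36 and 4.32 RPKM in -R, 21.4 and 19.5 RPKM in +R, and 17.4 and 18.7 RPKM in R+LE. The rise with RANKL was 4.33-fold (log2 fold change 2.11, standard error 0.13, limma adjusted p = 5.99e-09). Nfkbia (chromosome 12, 55489409-55492647) encodes IκBα, the fast-acting feedback inhibitor. It was 11.2 and 13.5 RPKM in -R, 36.3 and 53.5 RPKM in +R, and 28.3 and 55.2 RPKM in R+LE. Every library with RANKL was above both -R libraries, but the spread within +R and within R+LE was wide, and the +R and R+LE libraries overlapped. Nfkbia rose 3.49-fold with RANKL (log2 fold change 1.80, standard error 0.25, limma adjusted p = 2.51e-05). Nfkbib (chromosome 7, 28759038-28766644) encodes IκBβ, which NF-κB does not induce in this way. It was 14.7 and 12.1 RPKM in -R, 10.9 and 9.87 RPKM in +R, and 10.89 and 11.04 RPKM in R+LE. The 4 libraries with RANKL lay below both -R libraries, and the log2 fold change of -0.35 from -R to +R missed the threshold (95% interval -0.65 to -0.05, limma adjusted p = 0.0572).

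The atypical inhibitors differed in level. Bcl3 (chromosome 7, 19808462-19822755) was 9.91 and 9.68 RPKM in -R, 21.2 and 23.9 RPKM in +R, and 15.8 and 21.4 RPKM in R+LE. It rose 2.24-fold with RANKL (log2 fold change 1.16, standard error 0.16, limma adjusted p = 2.06e-05). An antisense RNA shares 55 bp of exon with it in GENCODE. Nfkbiz (chromosome 16, 55811377-55822138) was the lowest member in every condition, at 1.498 and 1.868 RPKM in -R, 1.17 and 1.67 RPKM in +R, and 1.11 and 2.08 RPKM in R+LE. The conditions of Nfkbiz overlapped throughout, and its log2 fold change of -0.19 with RANKL did not pass the test (95% interval -0.68 to 0.29, limma adjusted p = 0.519).

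The order of the levels changed between conditions. In -R the highest members were Rela at 23.0 ± 0.704 RPKM and Nfkb1 at 20.5 ± 0.408 RPKM (SD, n = 2 each), with no overlap between them. Nfkbib, Nfkbia and Nfkb2 came next, and each overlapped its neighbour in that order. In +R the highest was Nfkb2 at 72.1 ± 4.48 RPKM, followed by Nfkbia at 44.9 ± 12.1 RPKM and Nfkb1 at 30.9 ± 0.984 RPKM (SD, n = 2 each), and these did not overlap. Rela came in rank 6 in +R, where Bcl3, Nfkbie, Rela and Relb formed a chain in which each overlapped the next. In R+LE Nfkb2 was again highest at 55.3 ± 1.60 RPKM but overlapped Nfkbia at 41.8 ± 19.1 RPKM (SD, n = 2 each).

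Among transcripts of the 5 subunit genes, Nfkb2 made up 17.4 ± 0.634% of the summed RPKM without RANKL, 47.9 ± 1.66% with RANKL and 45.5 ± 0.166% when LE was added (SD, n = 2 for each mean). Rela made up 36.0 ± 1.31%, 13.3 ± 1.63% and 16.9 ± 0.0889% in the same order (SD, n = 2 for each mean). The ratio of alternative to canonical subunit transcripts, each a sum of RPKM, was 0.304 and 0.275 without RANKL, 1.37 and 1.59 with RANKL, and 1.28 and 1.25 with LE added. The alternative subunits thus went from below to above the canonical subunits in every library with RANKL, and the R+LE libraries lay below the +R libraries. The summed RPKM of the 3 canonical genes was 49.6 ± 0.522 without RANKL, 60.7 ± 2.07 with it and 53.7 ± 2.18 with LE added, and that of the 2 alternative genes was 14.4 ± 0.890, 89.7 ± 6.21 and 67.9 ± 1.78 in the same order (SD, n = 2 each). For the ratio of inhibitor to subunit transcripts, the atypical Nfkbiz and Bcl3 were counted among the inhibitors. Nfkb1 and Nfkb2, which encode precursors, were counted only as subunits, and the ratio depends on this choice. With these classes the ratio moved less. It was 0.649 and 0.651 without RANKL, 0.618 and 0.708 with RANKL, and 0.618 and 0.872 with LE added, so that the conditions overlapped. These ratios describe RNA and give no level of protein or of processed p50 and p52, and they were not tested.

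**Figure D3:**
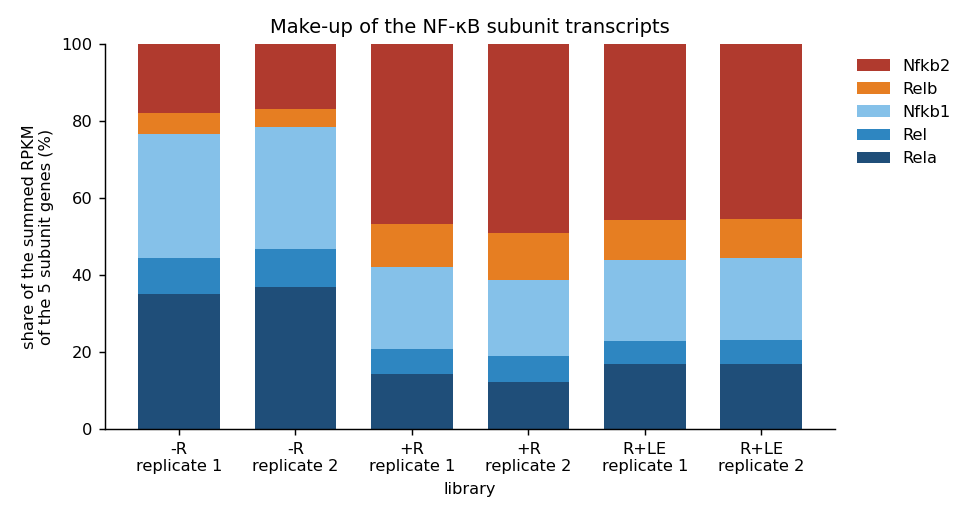
Share of each of the 5 subunit genes in their summed RPKM, as stacked bars for the 6 libraries. Nfkb2 and Relb, the upper 2 segments, together take less of the total than the canonical genes in the -R libraries and more in all 4 libraries with RANKL.

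To examine how LE changed the family in the presence of RANKL, R+LE was compared with +R, using the same +R libraries as above. Of the 10 genes, 1 passed the test, against 12.0% of all genes tested (5.19% higher and 6.86% lower in R+LE), and none changed by 2-fold, against 3.23% of all genes. The gene that passed was Relb, which fell with a log2 fold change of -0.46 (95% interval -0.76 to -0.15, limma adjusted p = 0.0493). This call was lost in 13 of 17 alternative settings, with adjusted p-values of up to 0.340, although the direction held in all of them. Without either -R or either +R library, or without R+LE replicate 1, no member passed. Without R+LE replicate 2, Relb no longer passed and Bcl3 did (limma adjusted p = 0.0495).

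Nfkb2 and Rel were lower in both R+LE libraries than in both +R libraries, with log2 fold changes of -0.38 (95% interval -0.67 to -0.09, limma adjusted p = 0.0959) and -0.37 (95% interval -0.66 to -0.08, limma adjusted p = 0.101). Nfkb1 and Nfkbie also did not overlap between these conditions, with log2 fold changes of -0.26 and -0.17 (limma adjusted p = 0.273 and 0.512). Nfkbib went the other way without overlap, at 10.885 and 11.043 RPKM in R+LE against 10.882 and 9.873 RPKM in +R. The share of all genes without overlap was not counted, so these separations are descriptive. For Rela the log2 fold change with LE was 0.04 with a 95% interval of -0.25 to 0.33, for Nfkbib it was 0.08 (interval -0.23 to 0.38), and for Bcl3 it was -0.29 (interval -0.62 to 0.05). The intervals of Nfkbia, from -0.68 to 0.37, and Nfkbiz, from -0.39 to 0.59, were the widest. All 10 intervals lay inside a 2-fold change in either direction. The median over the 10 genes was -0.22, beside -0.05 over all genes.

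**Figure D4:**
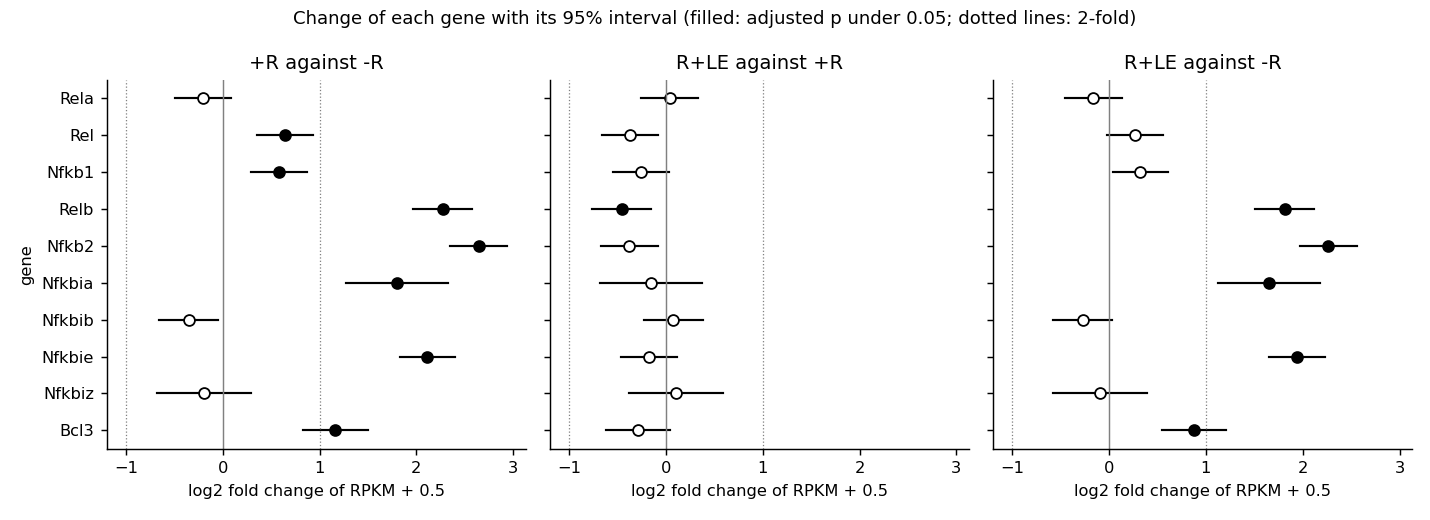
Log2 fold change of RPKM + 0.5 for each gene in the 3 comparisons, with 95% intervals from limma. Filled circles have an adjusted p under 0.05, and dotted lines mark a 2-fold change. Relb, Nfkb2, Nfkbia, Nfkbie and Bcl3 lie above 1 in +R against -R, and every interval in R+LE against +R stays between the dotted lines.

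Osteoclast markers, a list chosen with earlier results of these data known, gave an example of a large response to LE and not its typical size. All 9 fell by at least 2-fold in R+LE against +R. Among all genes 6.86% fell, and 3.23% changed by at least 2-fold in either direction. The log2 fold changes of the markers ran from -2.75 to -1.47, with a median of -2.15. Over all genes the median was -0.05. Of the rise in mean RPKM from -R to +R, R+LE kept 72.4% for Nfkb2, 65.5% for Relb, 85.2% for Nfkbie, 90.3% for Nfkbia, 68.9% for Bcl3, 50.7% for Nfkb1 and 36.8% for Rel. Between the 2 R+LE libraries this share differed most for Nfkbia, at 48.9% and 132% of the rise, and for Bcl3, at 46.9% and 91.0%. It was 14.4% to 34.5% for the osteoclast markers, and its median over the 763 genes that rose by at least 2-fold with RANKL was 51.5%. Nfkb1 and Rel rose by less than 2-fold and so are not among these 763 genes. These shares reuse the +R libraries that define the rise, so they are given without a test.

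Compared with -R, cells given RANKL and LE together still had more of the alternative subunits and of the induced inhibitors. Of the 10 genes, 5 rose from -R to R+LE and none fell, against 15.3% and 19.0% of all genes (34.3% in either direction), and 4 of these by at least 2-fold, against 3.92% of all genes. The change on the log2 scale was 2.26 for Nfkb2 (adjusted p = 7.73e-09), 1.94 for Nfkbie (adjusted p = 2.91e-08), 1.81 for Relb (adjusted p = 1.17e-07), 1.65 for Nfkbia (adjusted p = 9.44e-05) and 0.88 for Bcl3 (limma adjusted p = 0.000435). Nfkb1 and Rel were above -R in both R+LE libraries, but their log2 fold changes of 0.32 and 0.27 did not pass (limma adjusted p = 0.0765 and 0.142). Rela, Nfkbib and Nfkbiz were at -0.16, -0.27 and -0.09 and did not pass either.

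Other genes of the pathway were taken from lists written with earlier results of these data known. The list of kinases and their regulators holds the IκB kinases, NIK and the TRAF and cIAP proteins that keep NIK low. Of its 10 genes, 5 rose and 3 fell with RANKL, beside 23.9% and 21.5% of all genes, and the median log2 fold change was 0.30. Birc3, which encodes the ubiquitin ligase cIAP2, went from 5.16 and 6.38 RPKM in -R to 51.8 and 47.7 RPKM in +R and 41.9 and 42.2 RPKM in R+LE, a log2 fold change of 3.01 with RANKL (limma adjusted p = 2.47e-10). Birc2, which encodes cIAP1, rose by 1.45, Traf2 by 1.33 and Traf3 by 1.17 on the log2 scale, and Map3k14, which encodes NIK, rose by 0.66 (limma adjusted p = 0.00669). The kinase subunits Chuk and Ikbkb did not pass, with log2 fold changes of -0.17 and -0.06, and the scaffold Ikbkg fell by 0.48 on that scale (limma adjusted p = 0.0136). Ikbke, a kinase tied to interferon induction, was 22.9 and 20.5 RPKM in -R, 6.91 and 6.98 RPKM in +R, and 11.1 and 13.8 RPKM in R+LE. It fell with RANKL (log2 fold change -1.58, limma adjusted p = 3.86e-07) and rose with LE (0.79, limma adjusted p = 0.00192). In the list, LE also lowered Birc2 (log2 fold change -0.73, limma adjusted p = 0.00265), and the other 8 genes did not pass. These 2 of 10 genes compare with 12.0% of all genes.

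The list of brakes on the pathway holds deubiquitinases, their adaptors, nuclear inhibitors and other genes listed as brakes. Of its 13 genes, 4 rose and 2 fell with RANKL, beside 23.9% and 21.5% of all genes. Tnip1, an adaptor of A20, went from 16.2 and 16.1 RPKM in -R to 52.9 and 53.2 RPKM in +R and 50.8 and 48.6 RPKM in R+LE. Its log2 fold change was 1.69 with RANKL (limma adjusted p = 7.78e-08) and -0.09 with LE (limma adjusted p = 0.768). Tnfaip3, which encodes A20 itself, was 2.04 and 2.08 RPKM in -R, 6.90 and 6.04 RPKM in +R, and 3.24 and 3.54 RPKM in R+LE. It rose with RANKL (log2 fold change 1.44, limma adjusted p = 1.32e-06) and fell with LE (-0.84, limma adjusted p = 0.00135), a larger fall than that of any of the 10 subunit and inhibitor genes, though the difference between genes was not tested. Nfkbid, which encodes the nuclear inhibitor IκBNS, rose by 1.39 and the deubiquitinase gene Cyld by 0.97 on the log2 scale with RANKL. Nlrc5 fell by 1.88 and Pdlim2, which targets nuclear p65 for destruction, fell by 1.21 on that scale. Pdlim2, Tnip3 and Nlrc3 rose with LE, by 0.74, 0.59 and 0.76, and Nlrc3 was above -R in R+LE (log2 fold change 1.02, limma adjusted p = 0.000133). Of the 5 genes of the ubiquitin ligase that destroys IκB, none passed in any of the 3 comparisons in limma, where 45.4%, 12.0% and 34.3% of all genes passed from -R to +R, from +R to R+LE and from -R to R+LE.

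**Figure D5:**
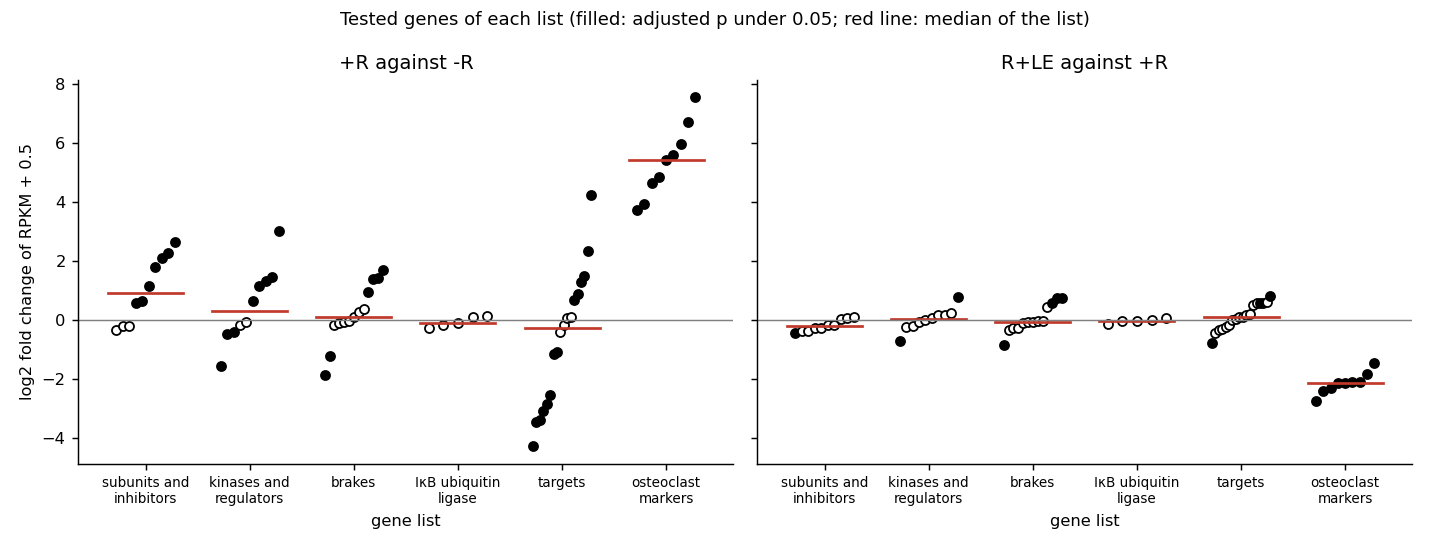
Log2 fold change of RPKM + 0.5 for the tested genes of 6 lists, with RANKL on the left and with LE added on the right. Filled circles have an adjusted p under 0.05 and red lines are list medians. The 10 subunit and inhibitor genes have a median of 0.90 with RANKL and -0.22 with LE, and the 9 osteoclast markers have medians of 5.43 and -2.15.

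A list of 25 textbook NF-κB targets split in direction. Of these, 18 passed the filter of 0.5 RPKM, 6 rose and 8 fell with RANKL, beside 23.9% and 21.5% of all genes, and the median log2 fold change was -0.28. Traf1, an adaptor of TNF receptors, went from 1.75 and 1.60 RPKM in -R to 41.8 and 39.0 RPKM in +R and 34.6 and 34.0 RPKM in R+LE, a log2 fold change of 4.23 (limma adjusted p = 3.15e-12). Cxcl10 rose by 2.34, the adhesion molecule gene Icam1 by 1.48, Junb by 1.29, the superoxide dismutase gene Sod2 by 0.89 and Ccl22 by 0.68 on the log2 scale, the last of these with at most 64 reads in any library. The genes that fell were Ccl2, Ccl4, Ccl5, Bcl2l1, Ccl3, Cxcl2, Tnf and Cxcl1, with log2 fold changes from -4.28 to -1.08. Cxcl2 passed the filter mainly through -R, where its mean was 3.38 RPKM. Its mean was 0.151 RPKM with RANKL, from 5 reads in each library, and 0.528 RPKM with LE added. Being tested thus depended on a high level in -R, which favours a fall, so Cxcl2 adds little to the count of 8. Cxcl1 held at most 35 reads in any library and only 4 and 6 in +R, and its mean over all libraries, 0.553 RPKM, was just above the filter and came mostly from -R, so its fall rests on few reads. Ccl2, a monocyte chemokine, was 311 and 321 RPKM in -R, 15.4 and 16.1 RPKM in +R, and 27.4 and 20.2 RPKM in R+LE. With LE, Tnf, Cxcl10 and Ccl2 rose by 0.82, 0.58 and 0.57, Cd83 fell by 0.79 on the log2 scale, and the other 14 genes tested did not pass, where 12.0% of all genes passed. Cd83 held 41 and 60 reads in +R and only 6 and 26 in R+LE. Its limma adjusted p of 0.0483 was just under the threshold, so its fall also rests on few reads. None of the 18 changed by 2-fold with LE, near the share of 3.23% among all genes.

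The genes with the most similar profiles over the 6 libraries were found by the root mean square difference of centred log2(RPKM + 0.5) values, for the 5 members that changed by at least 2-fold. They were Acvr2a, Rhof and Ppm1l for Relb, with differences of 0.080 to 0.136, and Pde4dip, Neurl1b and Ppp1r12b for Nfkb2, with 0.121 to 0.136. For Nfkbie they were Snora61, Ppm1l and Ptchd1, with 0.110 to 0.129, and for Bcl3 they included Tet2 and Mink1, with 0.066 and 0.073. Nfkbia, with its wide spread, had the least similar matches, Klf5, Psd and Airn, with 0.190 to 0.240. Psd is the neighbour that overlaps Nfkb2 on the opposite strand. No member was among the 3 nearest genes of another. Some of the nearest genes were low in -R, with means of 0.056 RPKM for Klf5, 0.38 RPKM for Psd and 0.51 RPKM for Snora61. In +R their means were 1.17, 3.03 and 3.47 RPKM. At such levels the added 0.5 shrinks a change, so likeness on this scale need not hold for RPKM.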

How the data were processed

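In all, 6 RNA-seq libraries were used, 2 for each condition that the sample titles give. Per the file headers and the paper's methods, the authors aligned paired reads to mm10 (TopHat in the paper, HISAT2 in the submitters' processing notes, versions not given in the sources used here), counted exon reads on either strand with HOMER, kept 1 transcript for each gene and deposited RPKM values under titles that say FPKM. Of the symbols, 26 had become dates and were restored from transcript identifiers.

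RPKM are not counts, so log2(RPKM + 0.5) was tested, in 11595 genes whose mean reached 0.5 RPKM. limma 3.58.1 in R 4.3.3 fitted the 3 conditions together with a variance trend, two-sided, with Benjamini-Hochberg adjustment. Rose and fell mean an adjusted p under 0.05. A fold change on this scale understates the change of low genes. An exact permutation test of 2 against 2 libraries cannot go below p = 0.333. At least 99.99% of the values checked in each library were whole reads within rounding plus 0.02 reads. Intervals from limma are at 95%, and the limit of 3 reads covers counting error only. The chi-square per gene between replicates was 11.8 to 26.4, above counting noise, and they were kept apart.

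The members and gene lists were chosen with earlier results of these data known. Named genes are the 10 members, list genes that changed by at least 2-fold in a comparison, other list genes as examples, and the 3 nearest profiles of each member that changed by at least 2-fold, and some items are not reported here. Exon overlaps come from GENCODE and promoters from RefSeq, both on GRCm38, the build of the deposited coordinates. The fits were run on simulated reads with the same dispersion for every gene. Such reads need not match the spread between these replicates, so the run does not show how the fits behave on these libraries. Each of the following was tried in turn: a pseudocount of 0.1 or of 1, a filter at 1 RPKM or none, a flat variance prior, fits to the compared conditions alone, median centring, quantile normalization, depth without Rn45s, a block for replicate number, voom weights from the recovered reads, and omission of each library. The software was Python 3.11.15 (numpy 2.4.6; pandas 2.3.3; matplotlib 3.10.9).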

Additional observations from a re-analysis of the deposited data

How the results depend on the processing

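With 2 libraries a condition, the standard error of a member’s log2 fold change was 0.13 to 0.25, so small changes could not be resolved. From -R to +R the count of members that passed was 7, and it was 7 or 8 under the alternatives that kept all libraries. The eighth was Nfkbib, which fell by 0.35 with only the compared conditions in the fit (limma adjusted p = 0.0419). Nfkbib also passed with median centring (limma adjusted p = 0.0494) and with a block for replicate number (limma adjusted p = 0.0406). From -R to R+LE the count was 5, and it was 6 with no filter, with median centring, with quantile normalization and with Rn45s left out of the depth, where Nfkb1 passed. From +R to R+LE the count was 1, and it was 0 with a pseudocount of 0.1, with no filter, with no variance trend, with only the compared conditions, with median centring, with quantile normalization and with Rn45s left out of the depth. It was 1 with a pseudocount of 1, a minimum mean of 1 RPKM and voom. With single libraries left out it ranged from 0 to 1, and from 7 to 8 and from 5 to 5 in the other 2 comparisons.

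The sign changed in 7 cases, all on values that did not pass and all with a library left out. For LE against RANKL these were Rela at -0.054 without +R replicate 2, Nfkbia at 0.12 without +R replicate 2 and at 0.32 without R+LE replicate 1, and Nfkbiz at -0.09 without +R replicate 1 and at -0.24 without R+LE replicate 2. For R+LE against -R they were Nfkbiz at 0.03 without -R replicate 2 and at 0.25 without R+LE replicate 1. With each library left out, these values ranged from -0.054 to 0.14 for Rela, from -0.63 to 0.32 for Nfkbia and from -0.24 to 0.44 for Nfkbiz with LE, and from -0.43 to 0.25 for Nfkbiz in R+LE against -R. The inhibitor to subunit ratio in -R was 0.654 after quantile normalization and 0.650 as deposited.

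No label says that a replicate number marks a shared culture. The differences between same-numbered libraries correlated across genes with r = -0.05 for -R and +R, 0.25 for +R and R+LE and 0.11 for -R and R+LE. The numbers were not taken as pairs because no label gives a pairing, and an effect shared by same-numbered libraries was not tested. With the replicate number as a block, the counts were 8, 1 and 5. From +R to R+LE, 1792 of all genes then passed, against 1397 without it. The standard error of Nfkbia in that comparison went from 0.247 to 0.152.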

Other observations

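Among the 10 genes, Nfkbia and Nfkbiz had the widest gaps between the 2 libraries of +R and of R+LE. In each condition the library numbered 2 was the higher, by 1.21-fold in -R, 1.47-fold in +R and 1.95-fold in R+LE for Nfkbia, and by 1.25-fold, 1.42-fold and 1.87-fold for Nfkbiz. Rel was also higher in the library numbered 2 of every condition, by 1.04-fold to 1.12-fold. Such a pattern was found for 3 of the 10 genes and for 10.0% of all genes tested, and the opposite pattern for none of the 10 and for 19.6% of all genes. It was noticed after the values were seen, and the cause was not tested.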
